A study of Arabidopsis halleri with 12 samples.

Results

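Added zinc was compared with control medium in wild-type (WT) roots of Arabidopsis halleri, a relative of Arabidopsis thaliana that stores high levels of zinc in its leaves. The comparison took 6 of the series' 12 arrays: 3 of WT roots with zinc added and 3 of WT roots in control medium, with all 22746 plant probe sets of each array. WT plants were of the Langelsheim wild-type genotype, multiplied as clones, grown in hydroponic culture and labelled as 5 weeks old. They were kept in Hoagland solution with 10 µM zinc ions added, or in control Hoagland solution without that addition. Each array carried biotin-labelled RNA made from 250 ng of root RNA, and each sample pooled 3 plants. The other 6 arrays, 3 with added zinc and 3 in control medium, came from a line in which RNA interference (RNAi) suppresses AhNAS2, a nicotianamine synthase gene, also grown from clones. Only 1 such line was profiled, and its arrays entered the fit only to estimate the spread and to stand beside the WT values.

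Zinc is an essential cofactor of many proteins and toxic in excess, so plants adjust its uptake, chelation and storage. In A. thaliana the transcription factors bZIP19 and bZIP23 sense low zinc and switch on transporter genes of the ZIP family, while metal tolerance proteins and P-type ATPases move zinc into vacuoles and the xylem. A. halleri keeps several of these transport genes highly active in roots, and iron and zinc share transporters and chelators such as nicotianamine.

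No probe set met the threshold of an adjusted p under 0.05 in WT roots (0 of 22746, limma fit over all 12 arrays with Benjamini-Hochberg adjustment, smallest adjusted p = 0.428), so no transcript is described as changed. The unadjusted p was under 0.05 for 1147 probe sets (5.04%), 608 with a positive difference (2.67%) and 539 with a negative one (2.37%). Among probe sets with 1 gene and no overlap between the arrays of the media, the pectin lyase-like gene AT1G60590 had the largest positive difference and methionine gamma-lyase MGL the next. The 10 most negative were led by AT4G33730, petG and AT1G73600 and included 5 extensin-type cell wall protein genes and the zinc transporter gene ZIP9. Arrays of the media did not overlap, meaning that all 3 zinc arrays lay above or below all 3 control arrays, in 1175 probe sets with zinc higher (5.17%) and 1166 with zinc lower (5.13%). Together these were 2341 probe sets, or 10.3%. With 3 arrays against 3, complete separation gives an exact two-sided permutation p of 0.1, the smallest possible, so separation is used here as a description.

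The values are log2 signals per probe set, and every difference is the zinc mean minus the control mean on that scale. Over all probe sets the differences ran from -1.93 to 1.33 with a median of -0.0049 and an SD of 0.15. Their median standard error (SE) was 0.11, and the 95% interval of a difference reached 0.24 to either side in the median. The interval lay inside 1 in either direction for 97.8% of probe sets and inside 0.5 for 83.6%. Differences of at least 1 in size numbered 5 in the positive direction and 10 in the negative, of which 2 and 9 came without overlap.

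The WT arrays had medians between 5.35 and 5.38 and correlated with each other at 0.985 to 0.994, and WT control replicate 2 had the lowest mean correlation. The annotation gives A. thaliana names: 13513 probe sets had 1 gene, 503 had several and 8730 were unlisted and stay unnamed. Signals of A. halleri transcripts depend also on sequence match to these A. thaliana probes. No probe set was named for a nicotianamine synthase, so AhNAS2 is not analysed here and the labels of the RNAi arrays were not checked against it. As markers of other organs, the nuclear photosynthesis list had 2 of 25 genes measured, and their summed linear signal was 62.4 to 73.9 on the WT zinc arrays and 66.6 to 75.2 on the WT control arrays. PYK10, a beta-glucosidase of root endoplasmic reticulum bodies, was at 9.83, 9.98 and 10.04 on the zinc arrays and at 10.29, 10.03 and 9.91 on the control arrays. It was 1 of 2 measured members of a list of 9 other root markers, of which 0 separated. The 2 went opposite ways, with a difference of -0.12 for PYK10 and 0.19 for AT1G62500.

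ZIP9, a ZIP family transporter gene that A. thaliana induces when zinc is short, had log2 signals of 10.14, 9.60 and 10.03 with added zinc, against 10.89, 11.08 and 10.32 in control medium. All 3 zinc arrays lay below all 3 control arrays. The means were 9.92 ± 0.29 and 10.76 ± 0.40 (SD, n = 3 each), a difference of -0.84 (SE 0.38, 95% interval -1.66 to -0.02, limma adjusted p = 0.972), or 1.79-fold lower. As with every SE of the main fit, this SE draws on the spread in all 4 groups. The RNAi SDs of ZIP9 were larger, at 0.57 with zinc and 0.81 in control medium. ZIP6, the other measured member of the 14 listed ZIP genes, differed by -0.02 (SE 0.14), with zinc arrays at 7.81, 7.79 and 7.84 inside the control range of 7.50 to 8.02. The sensor gene bZIP19 (-0.03, SE 0.13) overlapped between the media as well, as did BZIP24 (0.15, SE 0.19), which was listed with it.

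Few genes for moving zinc and related metals out of the cytosol were measured. No P-type ATPase gene was among them, so the values do not cover zinc efflux and storage as a whole. Of 28 listed efflux and storage genes 5 were measured, all of the metal tolerance protein family, and 0 separated. Their median difference was -0.02, and the 95% intervals of AT1G79520 (MTP9), MTP11 and AT2G04620 (MTP12) lay within 0.4 on either side of 0. AT3G58060 (MTP8), which loads manganese and iron into vacuoles in A. thaliana, differed by -0.07 (SE 0.26). AT1G16310 (MTP10) had the widest spread, at 8.39, 9.97 and 8.87 on the zinc arrays, beside a control mean of 9.64 ± 0.65 (SD, n = 3) whose highest array stood at 10.31. Its difference was -0.56 (SE 0.43), and both media covered much of the same range. The metallothionein MT1C, a cysteine-rich metal binder and the only measured gene of 11 in its list, stood at 10.84, 11.01 and 11.31 with zinc, against 11.33, 11.13 and 11.34 in control medium (difference -0.21, SE 0.16).

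**Figure D1:**
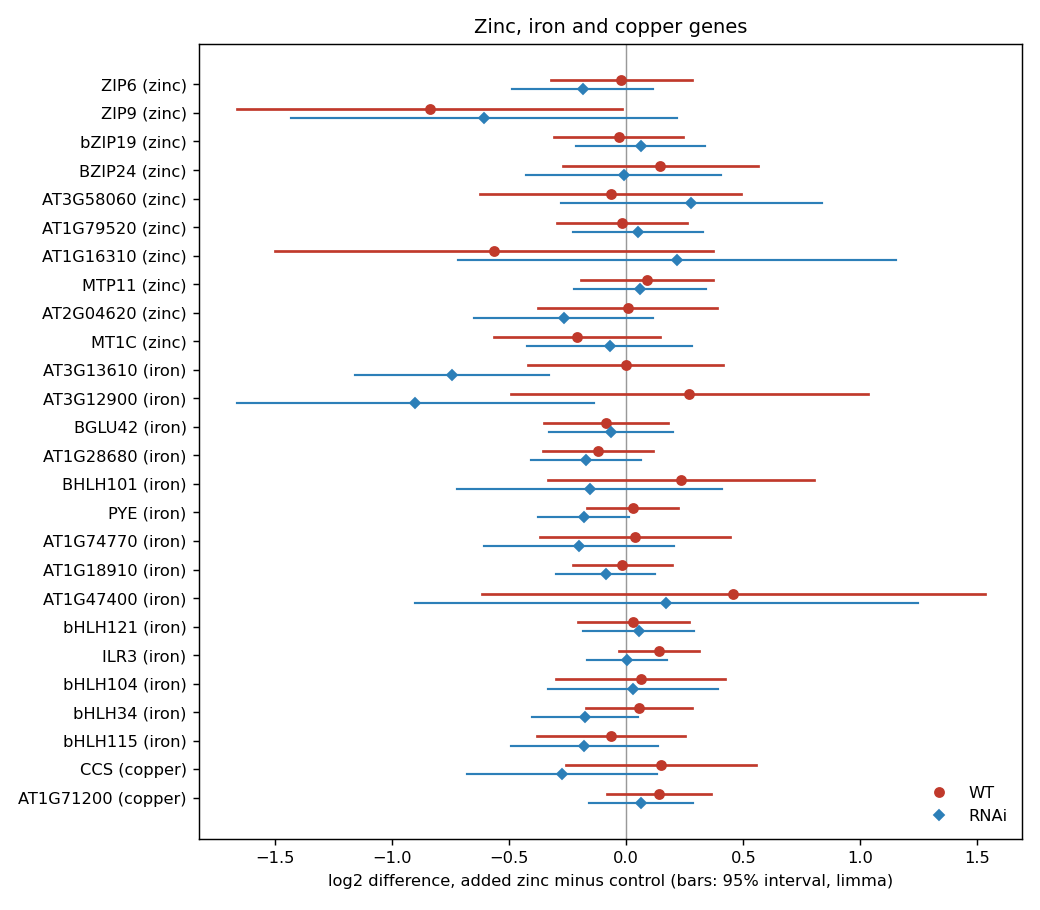
Log2 difference of added zinc minus control (points) with its 95% limma interval (bars) for the 26 measured genes of the zinc, iron and copper lists, WT roots in red above RNAi roots in blue. ZIP9 lies at -0.84 in WT, and the other WT intervals include 0. Over all probe sets, 5.04% had a WT interval without 0.

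Iron lists had medians near 0 in WT, with wide intervals for some members. Iron-deficient A. thaliana roots release coumarins that mobilise iron, and the enzyme genes AT3G13610 (F6'H1) and AT3G12900 (S8H) make them. AT3G13610 was at 10.70, 10.75 and 10.01 with zinc and at 10.25, 10.53 and 10.69 in control medium, with equal means within 0.003 of each other (SE 0.19). AT3G12900 was at 9.32, 9.44 and 8.75 with zinc and at 9.31, 7.92 and 9.46 without, so that WT control replicate 2 stood lowest (difference 0.27, SE 0.35). In the RNAi line both genes had zinc arrays below all control arrays, with differences of -0.74 (SE 0.19) and -0.90 (SE 0.35). The difference between the lines' zinc effects did not meet the threshold for either gene (limma interaction, adjusted p = 0.9999), so these values are not called particular to a line. Of the 5 measured iron uptake genes 0 separated in WT, with a median of -0.07.

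Among 10 measured regulators of the iron deficiency response 1 separated, beside 10.3% of all probe sets in either direction. It was ILR3, a bHLH factor that activates that response. It stood at 10.51, 10.41 and 10.53 with zinc, against 10.30, 10.35 and 10.39 in control medium, a difference of 0.14 (SE 0.079, adjusted p = 0.972). The list's median was 0.05. AT1G47400 (IMA1), which encodes a peptide that promotes iron uptake, had the widest interval of the list (-0.62 to 1.53), because its control arrays ran from 4.28 to 6.79. Without WT control replicate 2 its difference was -0.18. For BHLH101, another responder to iron deficiency, control arrays ran from 3.96 to 5.20 around the zinc values of 4.67, 4.99 and 5.17. The copper list had 2 of 15 genes measured: AT1G71200 (CITF1), a copper deficiency factor, separated at a difference of 0.14 (SE 0.10), and CCS, the copper chaperone of superoxide dismutase, overlapped (0.15, SE 0.19). The plot of metal genes shows 1 of 26 WT intervals without 0, that of ZIP9. An interval without 0 is the same criterion as an unadjusted limma p under 0.05, met by 5.04% of all probe sets. The count for the metal genes is therefore not read as a result.

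Cell wall genes of the extensin type made up 5 of the 10 most negative separated genes. Extensins are hydroxyproline-rich glycoproteins that cross-link in the wall, and in A. thaliana many extensin-like genes are active in root hairs, the outgrowths that enlarge the absorbing surface. AT5G06630 had log2 signals of 9.91, 9.02 and 9.79 with added zinc, against 10.59, 10.46 and 10.41 in control medium. Its difference was -0.91 (SE 0.36, adjusted p = 0.972), or 1.88-fold lower, and WT zinc replicate 2 lay lowest. AT3G28550 was at 7.41, 6.45 and 7.20 with zinc and at 7.96, 8.05 and 7.75 without (difference -0.90, SE 0.38). AT5G19810 was at 8.85, 8.10 and 8.63 with zinc and at 9.46, 9.64 and 9.10 without (-0.87, SE 0.36). The same replicate was again the lowest in both. AT4G08410 differed by -0.83 (SE 0.31), AT3G54580 by -0.83 (SE 0.30) and AT1G23720 by -0.73 (SE 0.26), each without overlap.

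To describe the whole group, 21 extensin genes were listed after these values had been seen, so their count is no independent evidence of a direction. Of the 12 with a probe set, 12 had a negative difference and 8 separated with zinc lower (66.7%, against 5.13% of all probe sets). Their median difference was -0.64, against -0.0049 over all probe sets. The median log2 signal of the 12 was 7.75, 7.15 and 7.73 on the zinc arrays and 8.20, 8.07 and 8.14 on the control arrays. AT1G26240, at 8.09, 7.96 and 8.26 with zinc and 8.64, 8.66 and 8.68 without, had arrays close together within each medium and a clear gap between the media (-0.55, SE 0.14, adjusted p = 0.972). The smallest difference was that of AT4G08370, at -0.02 (SE 0.097). Probe sets of AT5G06630, AT4G08410 and AT1G23720 carry the suffix of sets with probes that can also match other transcripts. Their identity is therefore uncertain, and the median of the other 9 was -0.37.

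Leucine-rich repeat extensins, which tie wall sensing to growth, were listed in the same way. Of 4 measured genes of 7, AT3G24480 (LRX4) stood at 7.51, 7.78 and 7.66 with zinc, against 8.08, 8.37 and 8.11 in control medium. It separated with a difference of -0.54 (SE 0.11, adjusted p = 0.690). AT4G18670 (LRX5) separated at -0.26 (SE 0.16), and AT3G22800 and AT5G25550 were at -0.04 and -0.02.

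Root hair genes had negative differences in 5 of 5 measured members of a list of 20, with a median of -0.50, and 2 separated (40%, against 5.13% of all probe sets). Without WT zinc replicate 2 the median was -0.32. EXPA7 and EXPA18 are expansins that loosen the walls of growing hairs in A. thaliana. EXPA18 was at 6.92, 6.28 and 6.92 with zinc and at 7.20, 7.46 and 7.01 in control medium (difference -0.52, SE 0.36, adjusted p = 0.972), or -0.30 without WT zinc replicate 2. EXPA7 was at 8.11, 7.48 and 7.75 with zinc and at 8.37, 8.50 and 8.02 without (-0.52, SE 0.31), with 1 zinc array above the lowest control array. The peroxidase gene AT1G30870 separated at -0.50 (SE 0.25), while the peroxidase AT4G26010 (-0.37, SE 0.23) and the wall enzyme XTH26 (-0.46, SE 0.37) overlapped. The summed linear signal of the 5 genes was 1210 to 1930 on the zinc arrays and 1932 to 2373 on the control arrays. Of the 5 genes 0 had an unadjusted limma p under 0.05, so a lower hair signal is not shown here. In whole roots, the share of hair cells and the RNA per hair cell cannot be told apart, and neither was tested. The part of the hair genes in the extensin values was not tested.

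In the RNAi line most of these genes had negative differences too, and few separated. The median difference there was -0.48 over the 12 extensin genes (11 negative, 2 without overlap) and -0.41 over the 5 root hair genes (5 negative, 0 without overlap). Replicate 3 of the RNAi line was low in both media: the extensin median was 7.63, 7.37 and 7.05 on its zinc arrays and 8.26, 8.19 and 7.30 on its control arrays. ZIP9 followed that order, at 10.37, 10.33 and 9.36 with zinc and 11.07, 11.12 and 9.69 in control medium (difference -0.61, SE 0.38). For the extensin median and for ZIP9, the RNAi zinc array lay below the control array of the same number in 3 of 3 cases. This is a description only. No label ties these numbers to shared experiments, they were not taken as pairs, and the extensins were listed after their values were seen.

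**Figure D2:**
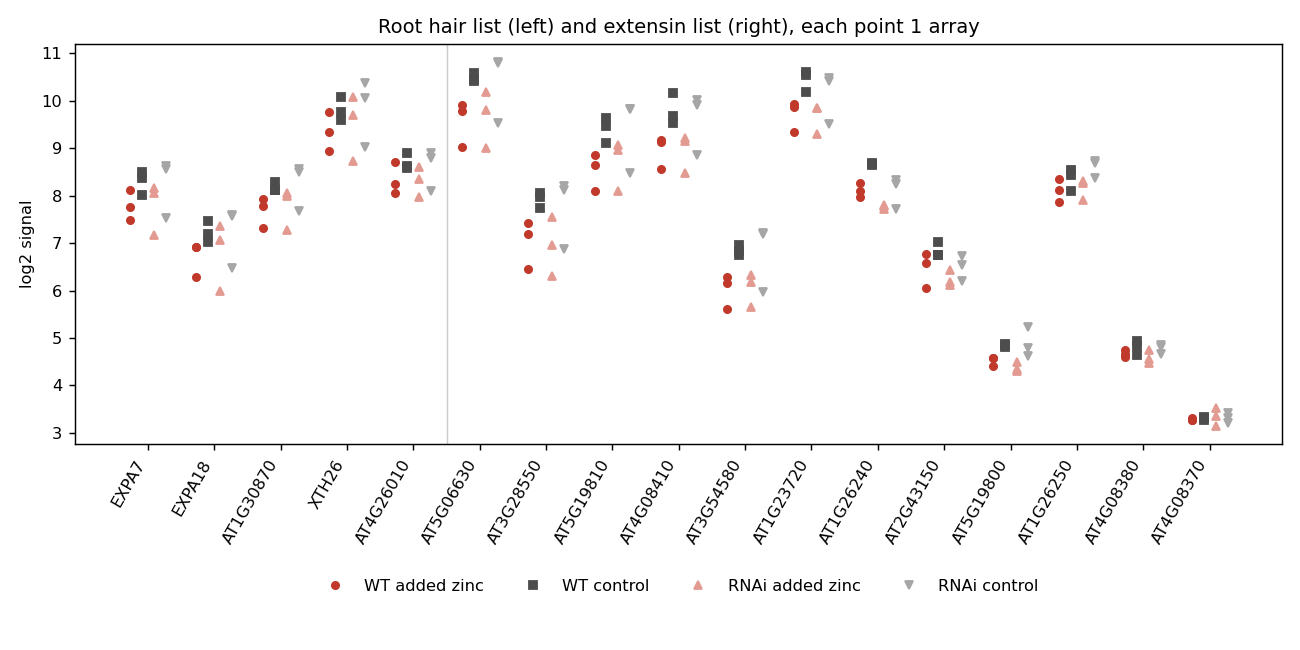
Log2 signal of 5 root hair genes (left of the line) and 12 extensin genes (right), 1 point per array, for WT zinc, WT control, RNAi zinc and RNAi control. In WT, 2 of the 5 and 8 of the 12 have every zinc array below every control array, and RNAi replicate 3 sits low in both media for most genes.

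Of the 10 most positive separated genes, AT1G60590 had the largest difference. It encodes a pectin lyase-like protein, of a family of pectin-degrading enzymes, and stood at 7.71, 6.45 and 6.21 with zinc, against 5.37, 6.20 and 5.43 in control medium. WT zinc replicate 3 lay only just above WT control replicate 2. The difference was 1.12 (SE 0.38, 95% interval 0.29 to 1.96, adjusted p = 0.972), or 2.18-fold, and 0.66 without WT zinc replicate 1. In the RNAi line it was 0.76 (SE 0.38), with zinc arrays at 7.39, 7.18 and 7.44 and control arrays at 6.01, 6.49 and 7.22.

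MGL, which breaks methionine down to methanethiol, was at 5.70, 5.90 and 6.71 with zinc and at 5.68, 4.93 and 4.94 in control medium, so that the media were only just separate. Its difference was 0.92 (SE 0.26, adjusted p = 0.972). Of 9 listed genes of sulfur amino acid metabolism 3 were measured and 2 separated with zinc higher, MGL and BCAT4, beside 5.17% of all probe sets. BCAT4, an aminotransferase that starts methionine chain elongation for glucosinolates, was at 6.35, 6.12 and 5.99 with zinc and 5.91, 5.65 and 5.86 without (0.35, SE 0.16). ARD4, of the methionine salvage family, overlapped (0.28, SE 0.27). In the RNAi line MGL differed by 0.34 (SE 0.26) and BCAT4 by -0.21 (SE 0.16), both with overlap.

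Several other positive values belonged to transport and calcium-binding genes. AT2G26690, a member of the nitrate and peptide transporter family, was at 6.59, 6.80 and 5.94 with zinc and 5.85, 5.48 and 5.63 without (0.79, SE 0.20). Its relative AT1G59740 was at 8.39, 8.24 and 8.26 with zinc and 7.74, 7.60 and 7.84 in control medium (0.57, SE 0.14), with a gap wider than the spread in either medium. AT3G21690, a MATE-type efflux carrier, differed by 0.62 (SE 0.19). The EF-hand proteins AT3G10190 and AT4G38810, which bind calcium, differed by 0.61 each (SE 0.16 and 0.25). Without WT zinc replicate 1 AT4G38810 was at 0.40. The RNAi values of both were -0.03 and -0.35. AT5G01210, an acyltransferase of the HXXXD type, differed by 0.61 (SE 0.24) with zinc replicate 3 at 9.54 and the other zinc arrays at 8.83 and 8.47, and by 0.31 without replicate 3. The hydrolase gene AT2G39400 (0.60, SE 0.21) and AT1G64560 (0.68, SE 0.25) complete the 10 with the mitochondrial gene nad2. The adjusted p was 0.870 for nad2 and 0.972 for the other 9.

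**Figure D3:**
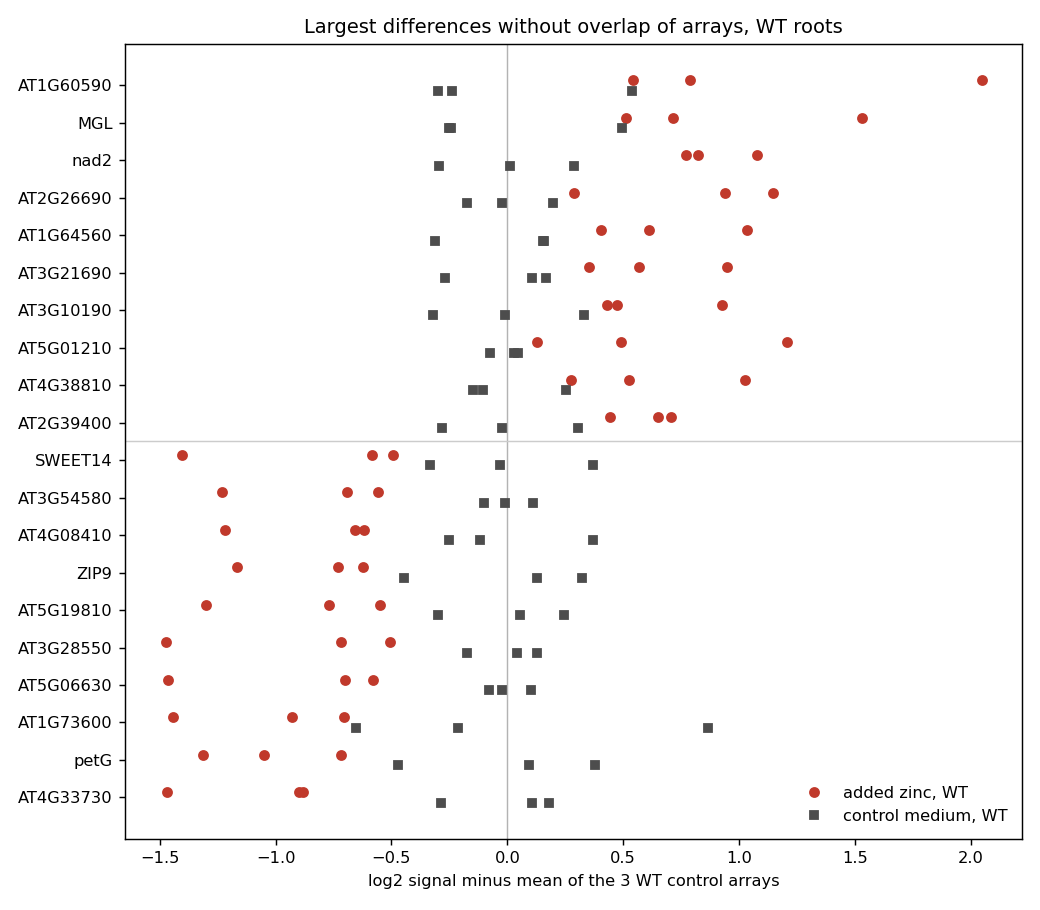
Log2 signal minus the mean of the 3 WT control arrays for the 10 most positive and 10 most negative single-gene probe sets without overlap, 1 point per WT array, added zinc in red and control medium in grey. The gap is narrow for MGL and AT1G73600 and wide for nad2 and AT5G06630.

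Among the negative values outside the wall group, AT4G33730 had the largest. It encodes a secreted protein of the CAP family, to which pathogenesis-related protein 1 belongs, and stood at 6.85, 6.28 and 6.87 with zinc, against 7.93, 7.86 and 7.47 in control medium (difference -1.08, SE 0.45, adjusted p = 0.972). The gap between the media was about as wide as the range within the zinc arrays. AT1G73600, a phosphoethanolamine methyltransferase that makes phosphocholine for membrane lipids, was at 7.39, 7.17 and 6.66 with zinc and at 7.45, 8.96 and 7.89 without (-1.02, SE 0.42). WT control replicate 2 held its highest value, and without it the difference was -0.59. The other 2 measured genes of phosphocholine synthesis, CCT1 and CCT2, differed by -0.11 and -0.08. SWEET14, a sugar transporter, was at 5.13, 6.03 and 5.95 with zinc and 6.49, 6.19 and 6.90 without (-0.83, SE 0.28), or -0.54 without WT zinc replicate 1. The zinc finger factor STZ (ZAT10) of abiotic stress was at 5.63, 6.26 and 5.88 with zinc, against 6.27, 6.96 and 6.84 (-0.77, SE 0.43), and at 0.17 in the RNAi line.

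The smallest unadjusted p belonged to AT1G04040, an acid phosphatase of the HAD family. It was at 9.09, 8.91 and 8.86 with zinc, against 9.46, 9.42 and 9.58 in control medium, a difference of -0.53 (SE 0.079, 95% interval -0.71 to -0.36, adjusted p = 0.428). The spread within each medium was well below the gap. Its SE draws also on the RNAi arrays, whose SDs were 0.03 with zinc and 0.04 in control medium. In the RNAi line its arrays lay between 8.92 and 9.03 in both media and differed by -0.04 (SE 0.079), and the difference between the lines' zinc effects had an adjusted p of 0.9999. Chosen after their values were seen, AT3G13340, a WD40 repeat protein, stood at 8.24, 8.30 and 8.24 with zinc, against 7.81, 7.80 and 7.80 (0.45, SE 0.076, adjusted p = 0.538). AT1G02360, a chitinase, was at 8.13, 8.05 and 8.11 with zinc, against 8.51, 8.41 and 8.55 (-0.40, SE 0.082, adjusted p = 0.690). In RNAi the media overlapped for both, with differences of 0.057 for AT3G13340 and -0.055 for AT1G02360. For both, the difference between the lines' zinc effects had an adjusted p of 0.9999 (limma interaction).

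Organelle-encoded genes included the extremes nad2 and petG. nad2, for a subunit of mitochondrial complex I, was at 5.04, 4.79 and 4.73 with zinc, against 3.67, 3.97 and 4.25 in control medium (0.89, SE 0.20, adjusted p = 0.870). nad7, of the same complex, separated in both lines (0.24 in WT and 0.30 in RNAi), while the 11 mitochondrial genes measured had a median of 0.09. petG, for a small subunit of the chloroplast cytochrome b6f complex, was at 3.44, 4.04 and 3.70 with zinc, against 5.13, 4.28 and 4.85 (-1.03, SE 0.38). Of 51 chloroplast-encoded genes 10 separated with zinc lower (19.6%, against 5.13% of all probe sets) and 0 with zinc higher. They share a genome and a transcript pool, so they are not independent, and their median was -0.06. psbN (-0.55), rpoC1 (-0.42) and petL (-0.34) followed petG in size. These members had low signals, with means over the 12 arrays of 4.11 for petG, 4.66 for psbN, 3.85 for rpoC1 and 3.29 for petL. The lowest value of any probe set was 2.46. Array medians of the 51 were 4.53, 5.14 and 4.49 with zinc and 5.00, 4.70 and 4.85 in control medium, with WT zinc replicate 2 the highest of all.

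Values in the 2 lines were set side by side, since no array is shared between them. Of the 1175 probe sets with zinc higher in WT, 113 also separated with zinc higher in RNAi, which is 9.62% of the WT set and 10.8% of the RNAi set. Over all probe sets 4.61% separated that way in RNAi. Of the 1166 with zinc lower in WT, 133 did so in RNAi, 11.4% of the WT set and 10.8% of the RNAi set, beside 5.41% over all. These joint counts are 0.497% and 0.585% of all probe sets. Opposite separation was seen in 23 and 17 probe sets (1.96% and 1.46%). The sign of the difference was shared by 67.3% of the WT-higher set and 70.6% of the WT-lower set, beside 58.4% of all probe sets. By the limma fit 0 probe sets passed in RNAi, and 0 passed for the difference between the lines, where 497 had an unadjusted p under 0.05 (2.18%).

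The positive genes separated in both lines with the largest smaller difference were AT1G64560, AT1G43240, AT1G64890, AT1G35740 and AT4G10030. Of these, AT1G35740 had a mean of 2.92 over the 12 arrays, near the lowest value of any probe set (2.46). AT1G64560 was at 5.91, 5.28 and 5.49 with zinc, against 4.56, 5.03 and 5.04 in WT control medium (0.68, SE 0.25), and differed by 0.70 (SE 0.25) in RNAi. AT1G43240 was at 5.49, 5.35 and 5.44 with zinc, against 4.73, 5.06 and 4.81 (0.56, SE 0.15), and differed by 0.61 in RNAi. AT1G64890, a transporter of the major facilitator type, differed by 0.36 in both lines, and the hydrolase AT4G10030 by 0.42 in WT and 0.31 in RNAi.

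Negative in both lines without overlap were AT1G18980, AT5G19800, petL, AT1G13130 and AT5G38820. AT1G18980, of the germin-like cupins found in cell walls, was at 9.67, 9.55 and 10.02 with zinc, against 10.30, 10.55 and 10.12 in WT control medium (-0.58, SE 0.16). In RNAi it differed by -0.41 (SE 0.16). AT5G19800 is an extensin gene (-0.32 in WT and -0.49 in RNAi), AT1G13130 a glycosyl hydrolase of the cellulase family (-0.37 and -0.32), and AT5G38820 an amino acid transporter (-0.31 and -0.38). The unnamed probe set 246596_at, chosen after its values were seen, had the most negative difference of all. It was at 4.60, 4.62 and 4.28 with zinc, against 6.15, 7.27 and 5.87 in WT control medium (-1.93, SE 0.37, adjusted p = 0.690), and separated in RNAi as well (-1.45).

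**Figure D4:**
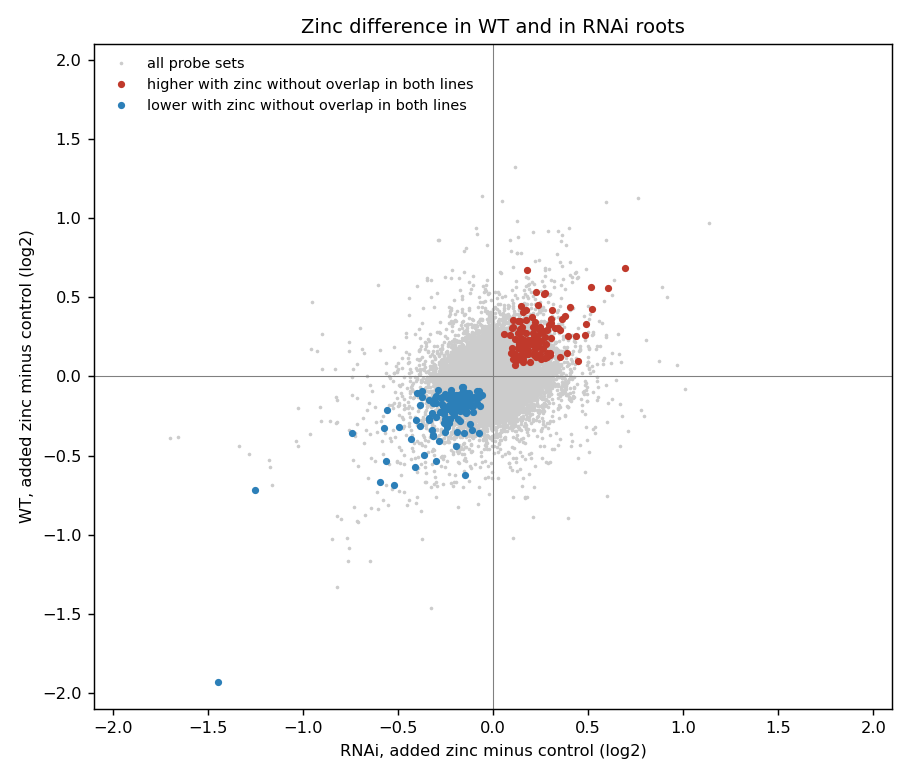
Log2 difference of added zinc minus control in WT (vertical axis) against the RNAi line (horizontal axis), 1 point per probe set, with the 113 probe sets separated upward in both lines in red and the 133 separated downward in blue. The lowest blue point, at -1.93 in WT and -1.45 in RNAi, is the unnamed probe set 246596_at.

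Of the control transcripts added during preparation, the hybridization controls lay apart between the media and the poly-A controls overlapped. The 18 hybridization control probe sets, which read RNA spiked in before hybridization and carry no plant signal, averaged 9.85, 10.08 and 9.91 on the WT zinc arrays and 10.24, 10.18 and 10.24 on the WT control arrays. All 18 were lower on the zinc arrays (-0.44 to -0.16, mean -0.27), and the exact two-sided permutation p was 0.1. The RNAi arrays showed the same order, with a mean difference of -0.37. The 24 poly-A controls, added to the sample RNA, averaged 6.78, 7.21 and 6.93 with zinc and 6.88, 6.57 and 6.78 in control medium (0.23, exact p = 0.2). Spike-in level and medium cannot be told apart in these arrays. With the hybridization level as a covariate the median SE over all probe sets was 0.16, beside 0.11 in the main fit. The difference was then 0.077 for AT1G60590, 0.25 for petG, 0.13 for petL and -0.63 for ZIP9, with a median of -0.59 for the extensin list. STZ moved from -0.77 to -1.61 and AT1G16310 from -0.56 to 0.16. The median of the chloroplast-encoded genes moved from -0.06 to 0.17. Why some values moved more than others was not tested.

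**Figure D5:**
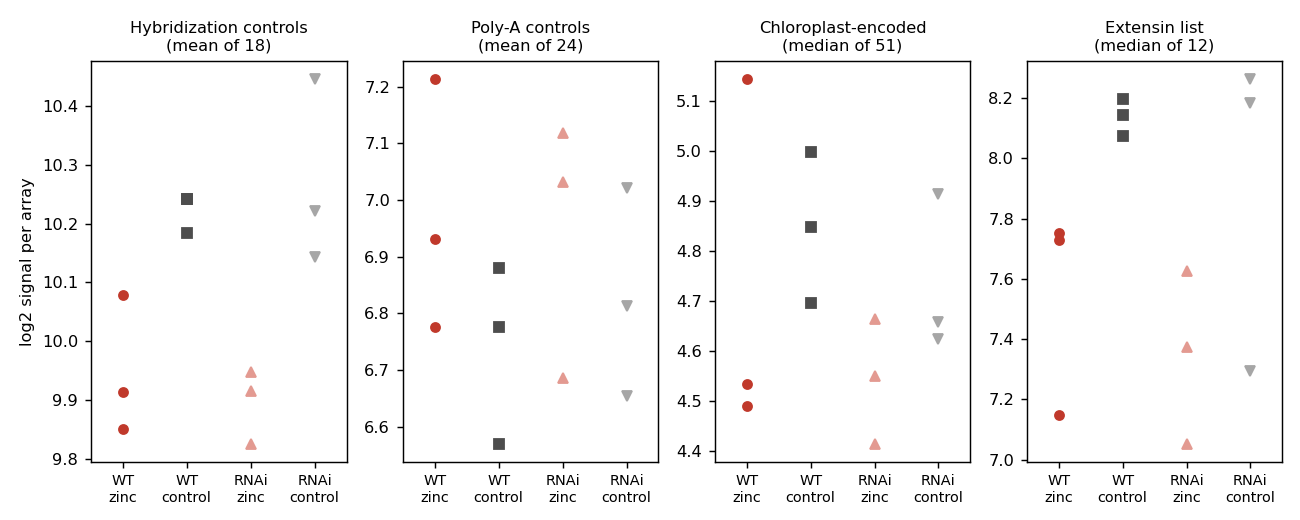
Mean log2 signal of the 18 hybridization controls and the 24 poly-A controls, and median log2 signal of the 51 chloroplast-encoded and 12 extensin genes, 1 point per array in each group. The hybridization controls and the extensin median of the WT zinc arrays lie below those of the WT control arrays, while the other panels overlap.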

How the data were processed

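Root RNA was measured on 12 single-colour arrays, 3 in each of 4 groups. The deposited table holds log2 expression values per probe set, made by the authors with RMA and the affy package, per the submitters' processing notes; versions, background and quantile steps were not stated there. No further scaling or filter was applied, and 64 control probe sets of the 22810 were left out of the fit. A group-means model was fitted with limma 3.58.1 (lmFit, eBayes, 8 residual and 3.79 prior degrees of freedom) in R 4.3.3. Contrasts were zinc minus control in WT, in RNAi, and their difference. Tests were two-sided and adjusted over 22746 probe sets. The procedure was tested on simulated data.

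Precision is limited by having 3 arrays in a group. The series text speaks of 3 independent experiments, but no label links a replicate number to an experiment, and p-values cover only the spread among these pools. Between the media, deviations of same-numbered WT arrays correlated at -0.31, -0.45 and -0.12, and in RNAi at -0.08, 0.13 and 0.41, so the numbers were not taken to pair the media. Replicate arrays of WT shared at most 0.0615% of their values.

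Genes named were drawn from several picks among single-gene probe sets without overlap. These were the 10 highest and 10 lowest, and the 5 and 5 with a mean of at least 8. A further pick was the 5 and 5 with the largest smaller difference in both lines. Added to these were all measured metal genes, up to 4 separated members of other lists, and the smallest p. Not every gene so picked is described in the text. Left out are, for example, AT3G10020 (0.52 in WT and 0.27 in RNAi, higher without overlap in both lines) and AT1G07040 (0.49 and -0.17). CML23 (-0.34 in WT and -0.11 in RNAi, lower without overlap in both lines) is another. The members and lists were chosen with earlier results of these data known. Of 323 listed genes in 23 lists 47 were measured, and 7 lists had none. Extensin lists and 4 families were drawn up after the annotation or values were seen. Settings tried were the WT arrays alone, replicate blocks, quantile normalization, median centring, a filter on dim probe sets, trend and robust eBayes, array weights, a spike-in covariate and leaving out each WT array. No sequence is shown.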

Additional observations from a re-analysis of the deposited data

How the results depend on the processing

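The count of probe sets past the adjusted threshold was 0 in 14 of the 15 other fits and 1 without WT control replicate 1, an unnamed probe set (249101_at, 2.35 with adjusted p = 0.0116, against 1.33 and adjusted p = 0.972 with all arrays). Over the 6 WT arrays alone the smallest limma adjusted p was 0.942, beside 0.428 in the main fit. At the unadjusted threshold the count was 1147. Same-numbered arrays of the media deviated together (r over 0.1) in 0 of 3 pairs in WT and 2 of 3 in RNAi, so the numbers were not taken as pairs. With the replicate block over 12 arrays 0 passed and 1137 had an unadjusted p under 0.05, and with the replicate block over the 6 WT arrays 0 and 642. Without dim probe sets there were 557 such probe sets, 1088 without overlap and 103 without overlap in both lines, since fewer were tested. Leaving out 1 WT array gave 0 to 1 adjusted calls, 917 to 1500 at the unadjusted threshold, 4265 to 5081 without overlap and 379 to 455 in both lines; 2 arrays against 3 overlap less by construction. The line-by-zinc difference stayed at 0 in each fit run. The spike-in difference ranged from -0.34 to -0.23. With the spike-in covariate petG was at 0.25 and petL at 0.13, a reversed sign; the cause was not tested. The other values described for single probe sets and lists were counted once per setting. Of these, 32 moved by more than the spread between replicates, 26 of them under that covariate, and 2022 were not flagged. For the 34 named probe sets with a test, not flagged means only that the sign held and the adjusted threshold was not met. AT1G60590 is an example, at 1.12 in the main fit and 0.077 under the covariate.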

Other observations

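Large gene families of the root showed medians near 0 in WT. Of 47 UDP-glycosyltransferases, which attach sugars to metabolites, 4 separated with zinc higher and 1 with zinc lower (median 0.02). These are 8.51% and 2.13% of the family, beside 5.17% and 5.13% of all probe sets. UGT73B1 was at 4.29, 4.79 and 4.37 with zinc, against 4.07, 4.18 and 4.14 in control medium (0.35, SE 0.14, limma adjusted p = 0.972), and UGT73B5 at 5.28, 5.42 and 5.38, against 5.01, 4.80 and 5.26 (0.34, SE 0.14). Cytochromes P450 (24 genes, median -0.03) had 1 separated gene and serine carboxypeptidase-like proteins (29 genes, median -0.03) had 1, both with zinc higher (4.17% and 3.45%). The 15 defensins had 1 with zinc higher (6.67%, median 0.04). For 14 expansins the median was -0.11, with 1 separated downward, EXPA18 (7.14%). Of 15 SWEET sugar transporters SWEET14 separated with zinc lower and SWEET2 with zinc higher (0.36, SE 0.15), with a median of -0.003. The 6 WRKY factors measured did not separate.

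Some genes differed more between arrays of 1 medium than between the media. The high-affinity nitrate transporter NRT2.5 was at 4.09, 5.90 and 3.98 with zinc and at 5.02, 4.18 and 4.56 in control medium. Its difference was 0.07 (SE 0.57) in WT and 0.97 in RNAi, where zinc replicate 2 stood at 6.58. The mitochondrial gene cox2 was at 7.61, 8.74 and 7.05 with zinc, against 7.46, 6.62 and 8.37 (0.32, SE 0.46). Not of this kind was 254539_s_at, a probe set annotated to several genes and chosen after its values were seen. It was at 8.11, 8.22 and 7.64 with zinc, against 7.18, 6.46 and 6.90 in control medium (1.14, SE 0.18, limma adjusted p = 0.428). Its difference in RNAi was -0.06. The difference between the lines' zinc effects had an adjusted p of 0.9999 (limma interaction), so its value is not called particular to WT.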
